A study of Homo sapiens with 4 samples.

Results

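The S100 genes encode small calcium-binding proteins, and 10 of them were listed for study here: S100A2, S100A3, S100A4, S100A6, S100A8, S100A9, S100A10, S100A11, S100A13 and S100A16. Members were taken by gene name from a table of 20329 genes, which gave 8 of the 10. S100A8 and S100A9, which together form calprotectin, were not analysed here. Each of the 8 genes passed the filter on low values, a mean of at least 1 FPKM over the libraries, and so entered the tests, which covered 13928 genes. FPKM counts sequenced fragments scaled to gene length and to library size, so it is a level per length. Comparisons between genes are approximate here, because short genes with several transcripts, such as S100 genes, are sensitive to processing choices.

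Messenger RNA was sequenced from 4 cultures of triple-negative human breast cancer cells, 1 library each. The cells were MDA-MB-231 BM1 (1833), a derivative from bone metastasis, and MDA-MB-231 LM2 (4175), a derivative from lung metastasis. In each line the control cells carried a non-specific shRNA and the knockdown cells carried an shRNA against hnRNPM, an RNA-binding protein that takes part in splicing. All 4 cultures stably expressed an shRNA introduced with a lentiviral vector. The sources used here do not say whether a culture was 1 clone, and the 2 lines are themselves selected derivatives of 1 parental line. With 1 library per line and treatment, a difference within a line has no replicate check. The p-values and standard errors from both lines together rest only on the spread between these libraries, in part pooled over all tested genes. In bulk RNA, fewer cells that express a gene and less RNA per cell cannot be told apart.

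S100 proteins bind calcium through a pair of EF hands and work mostly as dimers. On binding calcium they expose a surface that docks on target proteins such as annexins, myosin and tropomyosin, and several are also secreted and act on receptors such as RAGE and TLR4. Most of their genes lie side by side on chromosome 1, and in breast cancer S100A4 is best known for its link with cell motility and metastasis.

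The libraries were first checked against their labels. HNRNPM, at 171 FPKM in the BM1 control and 132 in the LM2 control, fell to 28.4 and 20.3 FPKM upon knockdown. The change over both lines was -2.59 ± 0.25 on the log2(FPKM + 1) scale (standard error, limma, 2 lines, adjusted p 0.00318). The adjusted p was 0.213 in the fit that did not pair libraries by line, and HNRNPM was called in 2 of 10 alternatives, with the direction kept in all. VIM, which encodes vimentin, lay between 1159.8 and 2354 FPKM and CD44 between 155 and 223 FPKM, while EPCAM, which encodes an epithelial adhesion protein, was at or below 4.59 FPKM and ERBB2 at 13.5 to 21.9 FPKM. ESR1 and PGR were not analysed here. CDH1, which encodes E-cadherin, had 0.489 and 4.08 FPKM in BM1 against 0.170 and 2.30 in LM2, control first, and rose by 1.63 with the knockdown (log2 scale, limma, adjusted p 0.0144, and 0.28 without pairing, called in 3 of 10 alternatives). Its part in the S100 results was not tested. Of the markers fixed for other cells rich in S100 proteins, the myeloid gene CD14 was below 2 FPKM in 3 libraries and at 7.09 FPKM in the LM2 knockdown library, and the other 6 myeloid markers were not analysed here. Of 13 squamous markers, KRT10 lay between 18.3 and 23.5 FPKM, KRT14 and TP63 stayed below 1 FPKM, and the other 10 were not analysed here. The step structure of low values put the depth, in units of 1e6 fragments, at about 22.8 to 41.5 per library, which is an inference from the values.

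The sequences in front of 4 of the genes are shown first, and these genes were chosen by their values. S100A2 was the sole member called between the lines, though further members also separated them. S100A10 was more than 2-fold higher in a knockdown library. S100A3 and S100A4 are overlapping neighbours that were both higher in the LM2 knockdown library. Of these genes, only S100A2 was called in a test. Each window runs from 250 bases before to 50 bases after a start annotated by RefSeq on GRCh38.p14, on the minus strand of chromosome 1, written 5′ to 3′. Capitals mark matches on either strand to TATAAA (the TATA box core), TGANTCA (bound by AP-1), GGGCGG (the GC box) or CAGGTG (an E-box). S100A2 has a pair of annotated starts, and both are given. None of the marked motifs overlap one another in these windows.
S100A2, start farther upstream, chr1:153565795-153566094: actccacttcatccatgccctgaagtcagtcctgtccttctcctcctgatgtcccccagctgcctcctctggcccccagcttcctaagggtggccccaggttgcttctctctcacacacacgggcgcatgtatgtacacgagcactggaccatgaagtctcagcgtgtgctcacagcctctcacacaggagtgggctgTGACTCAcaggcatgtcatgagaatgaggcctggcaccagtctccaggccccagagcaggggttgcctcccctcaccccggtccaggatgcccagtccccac
S100A2, start farther downstream, chr1:153563838-153564137: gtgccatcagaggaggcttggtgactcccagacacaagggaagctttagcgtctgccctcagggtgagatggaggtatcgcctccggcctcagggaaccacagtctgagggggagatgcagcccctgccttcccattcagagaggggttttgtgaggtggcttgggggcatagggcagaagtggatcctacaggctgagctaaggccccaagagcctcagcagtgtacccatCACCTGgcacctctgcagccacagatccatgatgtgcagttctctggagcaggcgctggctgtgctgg
S100A3, chr1:153549209-153549508: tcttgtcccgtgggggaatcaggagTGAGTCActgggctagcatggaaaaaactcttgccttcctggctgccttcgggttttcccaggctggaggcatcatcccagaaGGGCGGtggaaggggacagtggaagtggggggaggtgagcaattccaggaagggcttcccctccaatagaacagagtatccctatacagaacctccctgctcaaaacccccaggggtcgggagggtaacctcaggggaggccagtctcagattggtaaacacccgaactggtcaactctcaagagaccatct
S100A4, chr1:153545757-153546056: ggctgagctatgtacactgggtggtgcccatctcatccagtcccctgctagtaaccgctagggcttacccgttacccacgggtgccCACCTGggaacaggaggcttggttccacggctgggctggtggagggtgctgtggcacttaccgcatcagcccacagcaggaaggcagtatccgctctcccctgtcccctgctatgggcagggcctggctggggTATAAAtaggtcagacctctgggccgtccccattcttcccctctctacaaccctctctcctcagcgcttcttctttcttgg
S100A10, chr1:151993810-151994109: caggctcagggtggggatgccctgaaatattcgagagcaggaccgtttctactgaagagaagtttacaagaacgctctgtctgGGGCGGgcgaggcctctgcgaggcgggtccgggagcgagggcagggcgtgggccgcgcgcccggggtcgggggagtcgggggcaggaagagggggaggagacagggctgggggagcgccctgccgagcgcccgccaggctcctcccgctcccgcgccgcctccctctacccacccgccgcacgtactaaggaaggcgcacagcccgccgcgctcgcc

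The windows differ in these letters. S100A4 holds TATAAA 31 bases before its start and CAGGTG, read on the other strand, 164 bases before it. The upstream S100A2 window holds TGANTCA 52 bases before the start, and the downstream one holds CAGGTG, again on the other strand, 18 bases before it. S100A3 holds TGANTCA 225 bases and GGGCGG 142 bases before its start. S100A10, whose window is 71.7% G and C, holds GGGCGG 167 bases before its start. Over the 12 windows of the 8 genes, TATAAA was in 2, TGANTCA in 2, GGGCGG in 6 and CAGGTG in 4. Of all 35116 windows of this length in the RefSeq table, 11.5% held TATAAA, 7.71% TGANTCA, 45.0% GGGCGG and 20.6% CAGGTG. A match describes the letters and says nothing of binding in these cells.

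The 8 genes differed in level by more than 2 orders of magnitude in places. S100A6, which encodes calcyclin, was the most abundant of them in every library, with 1150.4 and 756 FPKM in BM1 against 1916 and 1648 in LM2 (wherever a pair of values is given for a line, the control comes first). It ranked 34th, 53rd, 14th and 18th among all 20329 genes in these libraries. S100A11, S100A10 and S100A4 followed at 266 to 896 FPKM, in an order that changed from library to library. S100A16 and S100A13 came next, at 44.2 to 106 FPKM. S100A3 was at 13.8 to 34.8 FPKM and S100A2 at 5.12 to 55.2 FPKM, and S100A2 was the lowest in both BM1 libraries while S100A3 was the lowest in both LM2 libraries. For comparison, the median of the tested genes lay between 8.36 and 9.02 FPKM in the 4 libraries.

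Added up, the 8 genes came to 2512 FPKM in control and 1876 FPKM in knockdown BM1 cells. In LM2 the sums were 3489 FPKM in the control and 3907 FPKM in the knockdown library. These sums were 0.552% and 0.43% of all FPKM in BM1 and 0.803% and 0.895% in LM2. Both LM2 libraries thus held more S100 message than either BM1 library, and S100A6 made up 40.3% to 54.9% of the sum.

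**Figure D1:**
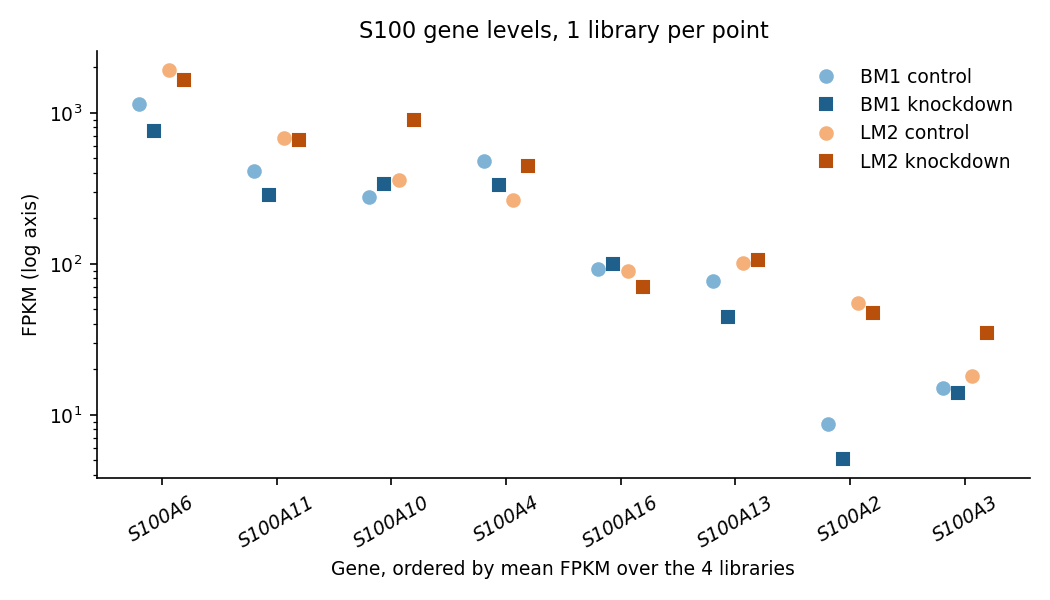
Levels of the 8 S100 genes in FPKM on a log axis, with 1 point per library and genes ordered by their mean over the 4 libraries. S100A6 is highest throughout, and S100A2 is at 5.12 and 8.70 FPKM in BM1 against 47.0 and 55.2 FPKM in LM2.

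The lines were compared gene by gene. S100A2, a mainly nuclear member of the family that is tied to squamous tissues, stood at 8.70 FPKM in the BM1 control and 5.12 FPKM in the BM1 knockdown library. In LM2 it was at 55.2 FPKM in the control and 47.0 FPKM in the knockdown library, so the 2 lines did not overlap. The ratio of LM2 to BM1 was 6.35 between controls and 9.19 between knockdowns. S100A2 was higher in LM2 by 2.75 ± 0.26 on the log2(FPKM + 1) scale (standard error, limma, 2 libraries per line, adjusted p 0.00113). It was the sole S100 member called at an adjusted p of 0.05, where 4.35% of all tested genes were called and 2.31% were called higher. Ranked with its sign, this difference lay above those of 99.8% of tested genes.

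The S100A2 call was lost under most alternatives, and kept only with both other pseudocounts, quantile normalization and size factors. The adjusted p was 0.114 in the limma fit without treatment as a term, which breaks the pairing, and 0.213 without the filter on low values. Leaving out one BM1 library gave 0.0970 (control) or 0.150 (knockdown), and one LM2 library 0.139 (control) or 0.115 (knockdown), with differences of 2.42 to 3.09. By the depth estimate, the S100A2 level in the BM1 knockdown library rested on about 73 fragments, or on up to 4 times as many if the finest step that fitted is taken. The summed level of the 3 measured squamous markers was 23.7 and 19.3 FPKM in BM1 and 20.4 and 21.2 FPKM in LM2. Most of this sum was KRT10. KRT14 had 0.122 and 0.838 FPKM in BM1 against 0.261 and 0.976 in LM2, and TP63 was at or below 0.154 FPKM.

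A group of 5 further members was higher in both LM2 libraries than in either BM1 library, without passing the threshold. S100A11, which works with annexins in repair of the plasma membrane, had 413 and 285 FPKM in BM1 against 684 and 657 in LM2. Its average difference was 0.96 ± 0.26 (log2 scale, standard error, limma, adjusted p 0.0805). S100A6, with the levels given above, differed by 0.93 ± 0.26 (limma, adjusted p 0.0840). The ratio of S100A6 to S100A11 in FPKM was 2.78 and 2.65 in BM1 and 2.80 and 2.51 in LM2. A near-constant ratio to S100A6 was common, as 94 tested genes had a centred profile within 0.2 of it on the log2 scale.

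S100A10, the S100 member whose EF hands have lost calcium binding, had 276 and 339 FPKM in BM1 against 359 and 896 in LM2. Its average difference between lines was 0.89 ± 0.30 (log2 scale, standard error, limma, adjusted p 0.134). S100A13, which takes part in the export of FGF1 and interleukin-1 alpha, had 76.5 and 44.2 FPKM in BM1 against 102 and 106 in LM2 (0.83 ± 0.29, limma, adjusted p 0.139). S100A3, a cysteine-rich member known from the hair cuticle, had 15.1 and 13.8 FPKM in BM1 against 18.1 and 34.8 in LM2 (0.76 ± 0.30, limma, adjusted p 0.190). Without the LM2 knockdown library the difference was 0.23 for S100A10 and 0.30 for S100A3, and without the LM2 control 1.55 and 1.21. That of S100A13 was 0.44 without the BM1 knockdown library.

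The remaining pair of members did not show this order. S100A4 had 480 and 333 FPKM in BM1 against 266 and 448 in LM2. Its libraries overlapped, and the sign of its line difference turned, as for 33.5% of tested genes, from -0.85 between controls to 0.42 between knockdowns (average -0.21 ± 0.33, limma, adjusted p 0.754). S100A16, a widely expressed member, had 92.8 and 99.8 FPKM in BM1 against 89.6 and 70.2 in LM2, slightly lower in LM2 without overlap (-0.28 ± 0.26, limma, adjusted p 0.583).

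Counted together, 6 of the 8 genes were higher in both LM2 libraries than in both BM1 libraries, a pattern that 19.4% of all tested genes showed. The reverse order held for 1 member, S100A16, and for 21.6% of tested genes. The median average difference of the 8 genes was 0.86 on the log2(FPKM + 1) scale, against -0.01 over all tested genes. At an unadjusted p under 0.05 in limma there were 6 members, against 22.4% of tested genes, and all 6 were higher in LM2, against 11.2%.

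The separation of the lines was wider in the knockdown libraries. Between controls, S100A2 alone was at least 2-fold higher in LM2 (1 of 8 members, against 6.98% of tested genes and 12.2% in either direction). Between knockdowns 6 of 8 were at least 2-fold higher in LM2, against 4.41% of tested genes: S100A2, S100A10, S100A3, S100A13, S100A11 and S100A6. Without S100A2 the differences of these between knockdowns ran from 1.12 (S100A6) to 1.40 (S100A10), and between controls from 0.24 (S100A3) to 0.74 (S100A6). The median of the 8 genes was 0.39 between controls and 1.22 between knockdowns, where all tested genes had medians of 0.03 and -0.06. Each of these values compares 1 library with 1 other, and the difference between both comparisons cannot be tested in this layout.

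**Figure D2:**
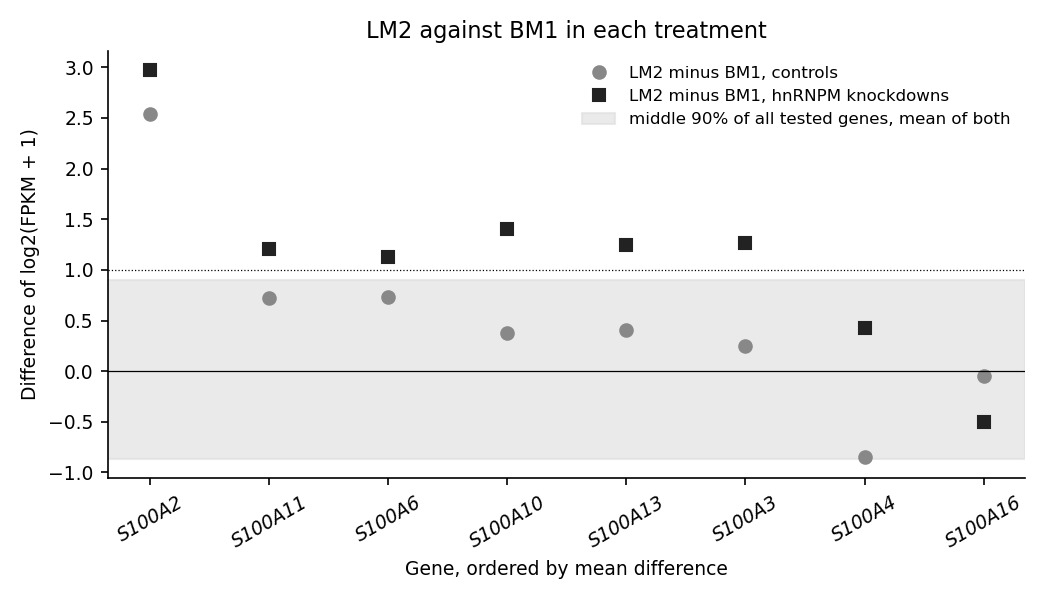
Differences between LM2 and BM1 in log2(FPKM + 1) for the 8 S100 genes, circles for controls and squares for hnRNPM knockdowns, with a dotted line at 2-fold. The grey band holds the middle 90% of all tested genes for the mean of both, from -0.86 to 0.90. For the single differences that are drawn, this range is wider, -1.02 to 1.11 between controls and -0.97 to 0.95 between knockdowns. S100A2 lies far above these at 2.54 and 2.97.

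The knockdown was compared next. No S100 member was called over both lines in limma (0 of 8, against 5.47% of tested genes), and 1 member, S100A10, was at an unadjusted p under 0.05 and higher, against 24.9% of tested genes in either direction and 12.4% higher. For no member did both knockdown libraries lie on one side of both controls, a separation that 21.8% of tested genes showed upward and 22.6% downward. The median average change of the 8 genes was -0.21, against -0.01 over all tested genes.

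S100A10 had the largest average difference of the members. Its level was 276 FPKM in the BM1 control and 339 FPKM in the BM1 knockdown library, and 359 FPKM in the LM2 control and 896 FPKM in the LM2 knockdown library. The LM2 knockdown library stood apart, 2.5 times its control, while the BM1 knockdown library was 1.23 times its control and below the LM2 control. The LM2 knockdown library also had the highest level of CD14, 7.09 FPKM, the only myeloid marker analysed. This marker alone does not show whether myeloid cells were present, and their part in the result was not tested. No member passed the 2-fold rule in BM1 (0 of 8, against 16.3% of tested genes). In LM2 S100A10 alone passed it (1 of 8, against 8.06% of tested genes in either direction and 3.83% higher). The average change was 0.81 ± 0.30 (log2 scale, standard error, limma, higher in 2 of 2 lines, adjusted p 0.149), and it was 0.11 without the LM2 knockdown library and 1.51 without the BM1 knockdown library.

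S100A10 protein forms a complex with annexin A2, so the level of ANXA2 was set beside it. ANXA2 had 1609 and 1136 FPKM in BM1 against 1170.5 and 1311 in LM2. The change of ANXA2 over both lines was -0.17 ± 0.27 (log2 scale, standard error, limma, adjusted p 0.745). The ratio of S100A10 to ANXA2 in FPKM was 0.171 and 0.298 in BM1 and 0.306 and 0.683 in LM2. In both lines the ratio was higher in the knockdown library than in its control. AHNAK, a large scaffold protein that binds the complex, had 133 and 76.0 FPKM in BM1 against 79.2 and 94.5 in LM2.

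**Figure D3:**
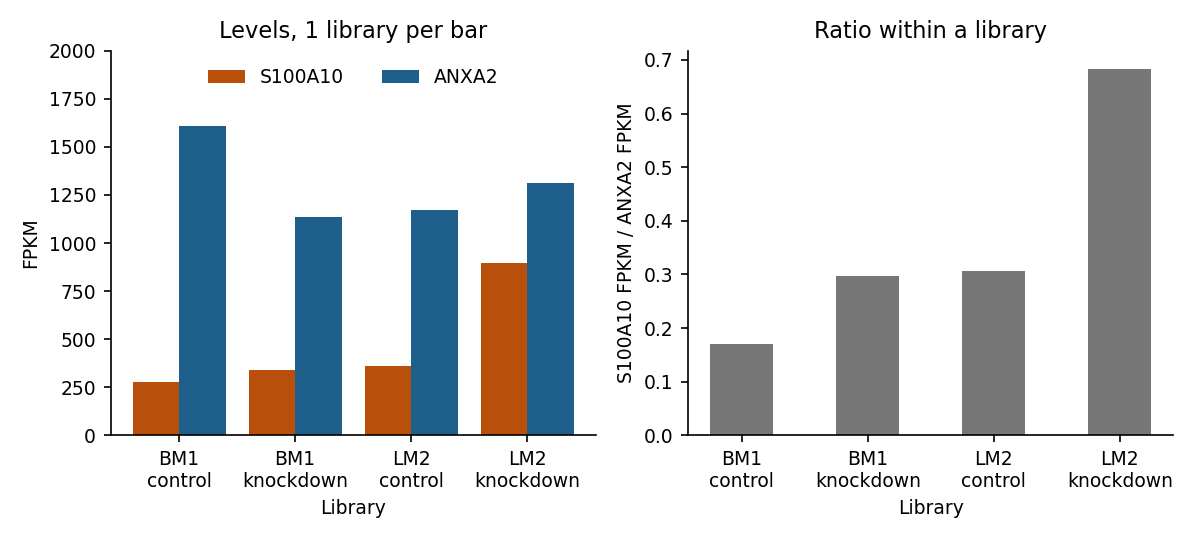
Left, FPKM of S100A10 and of its partner ANXA2 in each library; right, their ratio within the library. The LM2 knockdown library has the highest S100A10 level, 896 FPKM, and the highest ratio, 0.683.

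Lower average values in the knockdown libraries were found for 5 members, none of them called. S100A2 was 0.66 lower in the BM1 and 0.23 lower in the LM2 knockdown library on the log2(FPKM + 1) scale. S100A6 was 0.61 lower in BM1 and 0.22 lower in LM2, and S100A11 0.54 and 0.06 lower. The limma adjusted p-values of these 3 genes were 0.329, 0.362 and 0.525, with 2 of 2 lines lower for each. S100A13 went with them in BM1, where it was 0.78 lower, and was 0.06 higher in LM2 (limma, adjusted p 0.476). S100A16 was 0.10 higher in BM1 and 0.35 lower in LM2 (limma, adjusted p 0.811).

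S100A4 was lower in the knockdown library of BM1 and higher in that of LM2. S100A3 was higher in that of LM2 and only 0.12 lower in that of BM1 on the log2 scale. S100A4 was at 480 FPKM in the BM1 control and 333 FPKM in the BM1 knockdown library, and at 266 FPKM in the LM2 control and 448 FPKM in the LM2 knockdown library. The ratio of knockdown to control was 0.695 in BM1 and 1.69 in LM2. For S100A3 these ratios were 0.914 and 1.92, from 15.1 and 13.8 FPKM in BM1 and 18.1 and 34.8 FPKM in LM2. Over both lines the changes were 0.11 ± 0.33 for S100A4 and 0.39 ± 0.30 for S100A3 (log2 scale, standard error, limma, adjusted p 0.864 and 0.465). By the table's coordinates all of S100A3 (2044 bases) lies within the span of S100A4 on the same strand, so fragments could be shared between them and both values are uncertain. The FPKM ratio of S100A4 to S100A3 was 31.7 and 24.1 in BM1 and 14.7 and 12.9 in LM2.

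In BM1 6 of 8 members were lower in the knockdown library than in its control, as were 49.7% of tested genes. In LM2 4 of 8 were lower, as were 53.5%. The median change of the 8 genes was -0.53 in BM1 and 0.00 in LM2, against 0.01 and -0.04 over all tested genes. The sign of the change differed between the lines for S100A3, S100A4, S100A13 and S100A16, 4 of 8 members, against 30.9% of tested genes. Small changes were among these: -0.12 for S100A3 in BM1, 0.10 for S100A16 in BM1 and 0.06 for S100A13 in LM2. The median size of change over all tested genes was 0.44 in BM1 and 0.32 in LM2. The gap between the knockdown changes of the lines was at least 1 on the log2 scale for S100A4 (1.27), S100A3 (1.02) and S100A10 (1.02), 3 of 8 members, against 10.7% of tested genes.

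**Figure D4:**
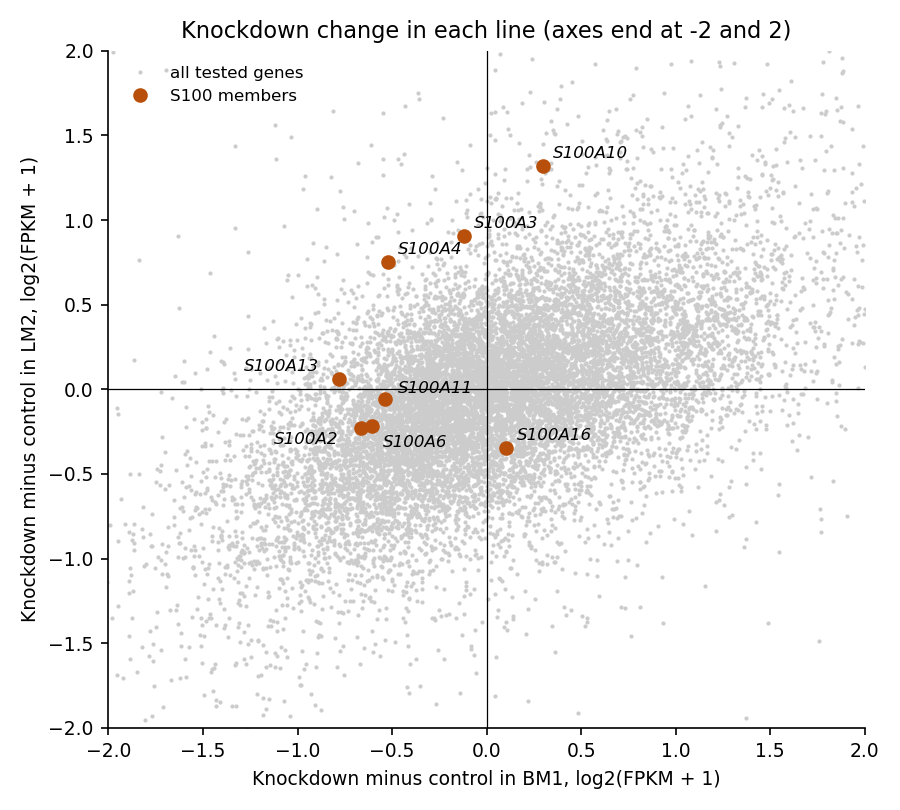
Knockdown minus control in log2(FPKM + 1), BM1 on the horizontal and LM2 on the vertical axis, with S100 members in orange over all tested genes in grey (points beyond -2 or 2 are not drawn). S100A10 is the highest member in LM2 at 1.32. S100A3 and S100A4 lie in the upper left, higher in LM2 and lower in BM1, where S100A3 is near the axis at -0.12.

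The members share a stretch of chromosome 1. On GRCh37, the build in the submitters' processing notes, all 8 are on the minus strand within 1648 kb, from S100A10 (chr1:151955391-151966866) and S100A11 (chr1:152004982-152020383) on one side to S100A6 (chr1:153507075-153508720), S100A4 (chr1:153516089-153522612), S100A3 (chr1:153519805-153521848), S100A2 (chr1:153533584-153540366), S100A16 (chr1:153579362-153585621) and S100A13 (chr1:153591263-153603836) on the other. There were 17 genes in that stretch, of which 11 were S100 genes and 9 of these were tested. The other 6 included FLG, FLG2 and HRNR, which encode fused-type S100 proteins of the epidermis. The 4 other fused-type genes listed were not analysed here.

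Genes between and beside the members gave a mixed pattern. FLG, which encodes filaggrin, rose with the knockdown: BM1 went from 1.07 to 3.71 FPKM, LM2 from 2.57 to 8.64, a change of 1.31 ± 0.25 (log2 scale, standard error, limma, adjusted p 0.0266). RP1-178F15.5 overlaps S100A13 on the same strand over 5029 bases. Its level fell with the knockdown: BM1 went from 28.5 to 4.92 FPKM, LM2 from 26.8 to 8.85 (-1.91 ± 0.29, limma, adjusted p 0.0129). The ratio of S100A13 to this gene in FPKM was 2.69 and 8.98 in BM1 and 3.79 and 12 in LM2, and how far shared fragments set either value was not tested. BX470102.3, which overlaps S100A6 on the opposite strand, had an average difference of -0.69 (limma, adjusted p 0.141). Without pairing by line, FLG and RP1-178F15.5 were at limma adjusted p-values of 0.406 and 0.265, and each was called in 2 of 10 alternatives. The 4 tested neighbours that are not S100 genes had average line differences of 0.33 (RP1-178F15.5), 0.45 (BX470102.3), 0.59 (FLG-AS1) and 0.91 (FLG). The median difference of all tested genes was -0.01. Between controls alone, RP1-178F15.5 differed by -0.08. Each of the 4 overlaps a member or another of the 4, so they do not count as independent genes. The lines did not overlap for 1 of the 4, FLG-AS1 (antisense to FLG, so reads of both may mix), against 19.4% of tested genes. In limma 0 of the 4 were called between lines, against 4.35%, and 2 were at an unadjusted p under 0.05, against 22.4%. For the knockdown 2 of the 4 were called, against 5.47%, and 3 were at an unadjusted p under 0.05, against 24.9%.

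**Figure D5:**
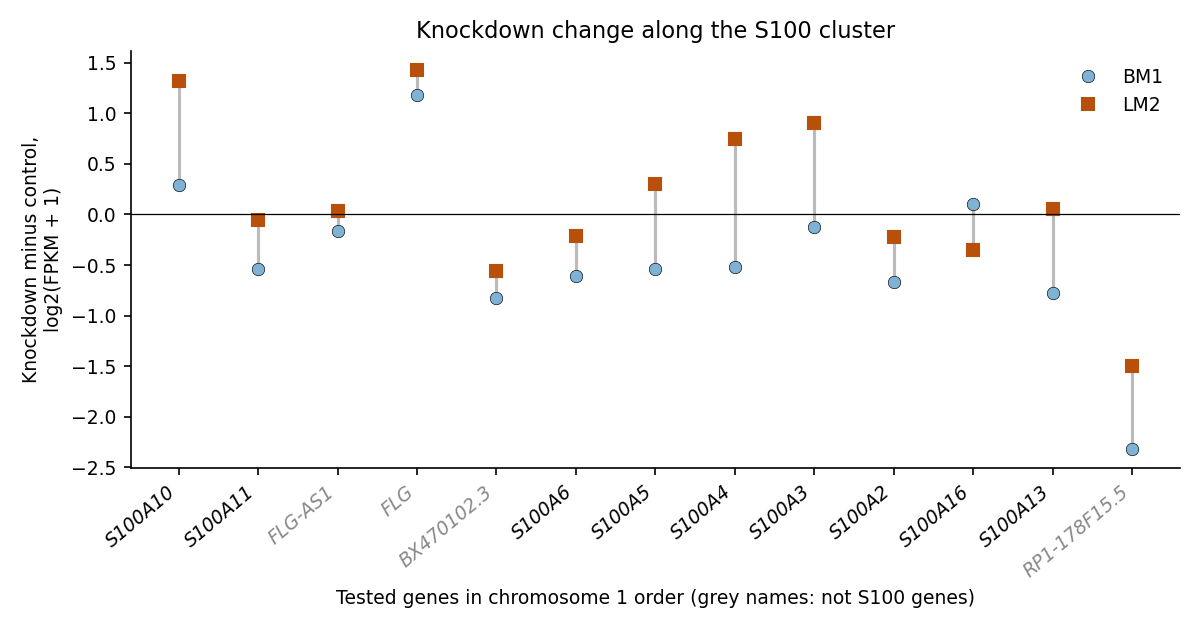
Knockdown minus control in log2(FPKM + 1) for the 13 tested genes of the stretch in chromosome order, circles for BM1 and squares for LM2. LM2 lies above BM1 for each gene drawn except S100A16, with FLG high in both lines and RP1-178F15.5 low in both. Some gaps are small, such as 0.19 for FLG-AS1, and the median gap of all tested genes is -0.05. All points rest on the same 4 libraries, and several of the genes overlap.

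Of 10 other S100 family genes, 4 were analysed: S100A1, S100A5, S100A14 and S100P. S100P, which lies on chromosome 4 apart from the cluster and is known from several carcinomas, was at 1.40 FPKM in the BM1 control and 11.8 FPKM in the BM1 knockdown library. In LM2 it was at 0.414 and 0.918 FPKM. The BM1 knockdown library was the high one, and the average difference of S100P over both lines was 1.43 ± 0.42 (log2 scale, standard error, limma, adjusted p 0.0839). Between lines it was lower in LM2 by 1.75 ± 0.42, the opposite direction to S100A2 (limma, adjusted p 0.0543). S100A5, next to S100A6, was at 5.45 and 3.44 FPKM in BM1 and 6.78 and 8.57 FPKM in LM2. S100A1 (0.169 to 1.12 FPKM) and S100A14 (0.0602 to 0.118 FPKM) were below the filter.

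Proteins that S100 members bind were read from a list of 19 genes, of which 18 were tested. The knockdown called 0 of them in limma, against 5.47% of tested genes, with 4 at an unadjusted p under 0.05, against 24.9%, and a list median of -0.13. Among those with a large difference were ANXA6 and ANXA1. ANXA6, an annexin bound by several S100 members, had 266 and 102 FPKM in BM1 against 194 and 113 in LM2 (-1.07 ± 0.27, limma, adjusted p 0.0556). ANXA1, a partner of S100A11, had 144 and 273 FPKM in BM1 against 372 and 474 in LM2 (0.63 ± 0.27, limma, adjusted p 0.187). MYH9, the myosin heavy chain bound by S100A4, lay between 239 and 282 FPKM in all libraries.

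Between lines, 1 of the 18 partner genes was called in limma, IQGAP1, against 4.35% of tested genes. IQGAP1, a scaffold of the cell cortex, had 56.4 and 71.1 FPKM in BM1 against 193 and 186 in LM2 (1.56 ± 0.26, limma, adjusted p 0.0144, and 0.225 in the fit without treatment), and was called in 2 of 10 alternatives. ANXA1 and TPM1 followed, higher in LM2 by 1.08 and 0.97 (limma, adjusted p 0.0614 and 0.0681). The median of the list was 0.31, against -0.01 over all tested genes.

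Of 5 receptors for secreted S100 proteins, 3 were tested. TLR4 rose upon knockdown: BM1 went from 7.55 to 22.3 FPKM, LM2 from 16.5 to 31.0 (1.16 ± 0.27, log2 scale, standard error, limma, adjusted p 0.0447), and its adjusted p was 0.421 without pairing. TLR4 was called in 1 of 10 alternatives, that with size factors. BSG, which encodes basigin, had 303 and 251 FPKM in BM1 against 440 and 293 in LM2. AGER, which encodes RAGE, lay between 1.19 and 1.99 FPKM. Neither was called, at adjusted p-values of 0.337 and 0.597 in limma. Between lines 0 of the 3 were called in limma, against 4.35% of tested genes, with 1, TLR4, at an unadjusted p under 0.05, against 22.4%.

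The genes closest in profile were sought for S100A2, S100A10 and S100A6, the 3 members with the widest range over the 4 libraries. Closeness was the largest gap in log2(FPKM + 1) between the profiles after each was centred on its mean. For S100A2 the closest was CTSB, which encodes cathepsin B, with a gap of 0.10, followed by LINC01615 (0.25) and NLRP2 (0.35). CTSB had 31.0 and 16.6 FPKM in BM1 against 177 and 145 in LM2. For S100A10 the closest were SCAMP4 (0.05), NINJ2 (0.09) and MPZL1 (0.11), each of them highest in the LM2 knockdown library. For S100A6 they were UNC45A (0.04), RPL12P4 (0.04) and WDR13 (0.04). Within a gap of 0.2 there was 1 gene for S100A2, 11 for S100A10 and 94 for S100A6. With 4 libraries, a close profile is a description.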

How the data were processed

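PolyA RNA libraries from 4 cultures were stranded, paired-end and made with Illumina TruSeq reagents, per the labels' protocols. The authors deposited 1 table of FPKM values, 1 column per library. Per the submitters' processing notes, the tools were STAR 2.5.3a and Cuffdiff 2.2.1 and the build GRCh37. The sources used here do not give the role of each tool or the annotation. Whether counting used strand is not stated either. Genes read from both strands and short genes with several transcripts, such as S100 genes, are sensitive to such choices.

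Of 20369 entries, 40 that repeat 3 gene IDs were left out. Genes with a mean of at least 1 FPKM were analysed as log2(FPKM + 1), a scale that understates changes of low genes. A limma 3.58.1 fit (R 4.3.3) with terms for line and treatment left 1 residual degree of freedom. Empirical Bayes was untrended and drew each gene's variance toward a value shared by all tested genes. A standard error given here is thus not the spread of that gene alone. P-values were two-sided, adjusted by Benjamini-Hochberg over all tested genes, at 0.05. Libraries were paired by cell line, as the labels give it. The residual is the gap between both lines' changes, so a gene that moved oppositely is hardly callable. Within a line a 2-fold rule was used, with no test. The fit was tested on simulated data. Noise there was the same for every gene, unlike here.

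Members and gene lists were chosen with earlier results of these data known. The text names all S100 genes, the 3 most different genes per list (by average difference), and neighbours and close profiles by size. Of the genes this rule selects, 2 are not reported here. ANXA2, AHNAK, MYH9, CDH1 and FLG-AS1 were singled out after their values were seen. For depth, FPKM times transcript length (GENCODE 29) in 1623 low single-transcript genes was matched to a common step, taking the coarsest that fitted. The share of products no more than 0.02 from whole was 36.5% to 44.8%, and its median over all steps tried was 2.28% to 2.98%. The share was 17.5% to 22.2% at the next coarser step and 50.0% to 62.0% at the finest. Finer steps, up to 4 times the depth, fitted too, so no count test was run. Fragment numbers cover counting error only. Alternatives were pseudocounts of 0.1 and 0.5, no filter, quantile normalization, size factors, no pairing, each library left out and a 1.5-fold rule.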

Additional observations from a re-analysis of the deposited data

Results flagged for a closer look

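Knockdown changes of opposite sign in the 2 lines drew attention to 4 members. Each rests on 1 library per arm, and the difference between lines was not tested. S100A4 was 0.52 lower in the BM1 knockdown and 0.75 higher in the LM2 knockdown library, a gap of 1.27 on the log2(FPKM + 1) scale, and its line difference of -0.85 between controls and 0.42 between knockdowns is the same gap read the other way. A gap at least as large was found in 5.15% of tested genes. The gap of S100A3 was 1.02 and that of S100A13 was 0.84, both higher in LM2. S100A16 went the other way, with a gap of -0.45, which 41.8% of tested genes reached or passed. Small changes were part of these gaps: -0.12 for S100A3 in BM1, 0.06 for S100A13 in LM2 and 0.10 for S100A16 in BM1.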

How the results depend on the processing

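In limma, no S100 member was called for the knockdown under any of the alternatives run, and the signs of the members' average changes held except where a library was left out. Without the replicate block, that is without pairing by line or treatment, S100A2 was not called between lines (0 members in place of 1). The count of members was also 0 without the filter and 0 without any of the libraries, whereas both other pseudocounts, quantile normalization and size factors left it at 1. Over all genes the knockdown called 762, which became 27 with a pseudocount of 0.1 and 0 with no filter, under quantile normalization, without the replicate block and with any library left out. The unadjusted limma p was under 0.05 for 3735, 3255, 1548 and 860 to 1943 genes in these settings. Between lines the 606 calls (322 higher, 284 lower) became 216 with a pseudocount of 0.1, 0 without the filter, 104 (44 higher, 60 lower) with quantile normalization, 11 without the replicate block and 6 to 28 with a library left out.

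Leaving out a library also unpairs the fit, so the arms then hold the lines unequally. The knockdown change then ran from -1.93 to 1.04 for S100A2, -0.90 to 0.30 for S100A11, -0.97 to 0.15 for S100A6, -0.98 to 0.26 for S100A13, -0.37 to 0.13 for S100A16, -0.31 to 0.54 for S100A4 and -0.24 to 1.03 for S100A3. For S100A10 it ran from 0.11 (without the LM2 knockdown library) to 1.51 (without the BM1 knockdown library). The line difference of S100A4 ran from -0.59 to 0.16, that of S100A10 from 0.23 to 1.55, that of S100A3 from 0.30 to 1.21 and that of S100A13 from 0.44 to 1.22.

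A 1.5-fold rule raised the members past it from 0 to 3 for the BM1 knockdown, from 1 to 3 for the LM2 knockdown and from 1 to 4 between controls, and left 6 between knockdowns. Over all genes it raised 2264 to 5262, 1123 to 3418, 1705 to 4738 and 1259 to 3865, in that order, and a pseudocount of 0.1 raised them to 3207, 1824, 2636 and 2013. The cause of these shifts was not tested. Among the 8 members, S100A2 in BM1 rested on the fewest estimated fragments.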

Other observations

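Calcium sensors with EF hands outside the S100 family were read for comparison, 15 of 16 listed genes being tested. In limma 0 were called for the knockdown and 0 between lines, against 5.47% and 4.35% of all tested genes. At an unadjusted p under 0.05 there was 1 of 15 in each contrast, against 24.9% and 22.4% of all tested genes. For the knockdown EFHD2, an actin-binding calcium sensor, led by size, with 77.9 and 28.1 FPKM in BM1 against 72.5 and 45.4 in LM2 (limma, adjusted p 0.0670). CALU, a calcium-binding protein of the secretory pathway, was higher by 0.52 on average (limma, adjusted p 0.262). CHP1, a cofactor of sodium-proton exchangers, was lowest in the LM2 control library, as S100A4 was, with 31.4 and 13.96 FPKM in BM1 against 6.29 and 17.7 in LM2. Between lines CHP1, RCN1 and RCN2 differed most, by -0.92, 0.70 and 0.51 (limma, adjusted p 0.310, 0.150 and 0.347).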
